A study of Mus musculus with 2 samples.

Results

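Among the nuclei of chronically inflamed mouse colon, 382 of 9586 formed a group that carried markers of mature absorptive colonocytes and at most 2 of 8 genes of the cells facing the lumen. These mid-crypt absorptive colonocyte nuclei numbered 164 of 4884 in the WT library and 218 of 4702 in the HIF-1α KO library. They were chosen by their own RNA. A nucleus with 400 to 5000 detected genes and at most 10% mitochondrial counts was taken when at least 4 of 8 marker genes (Slc9a3, Slc37a2, Tgm3, Ceacam20, Nlrp9b, St3gal4, Fa2h and Apol10a) were detected and held at least 0.3% of its counts. Fewer than 3 of 8 surface genes (Clca4a, Car4, Aqp8, Lama3, Slc15a1, Atp12a, Ifit1bl1 and Ly6m) could be detected. The name states a pattern of markers, since the position of a nucleus in the tissue was not measured.

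The study asked what loss of HIF-1α in NKp46+ innate lymphoid cells does to colon tissue after repeated injury. HIF-1α KO mice carried Ncr1cre+ and Hif-1α fl+/fl+ alleles, and WT mice were littermates. The Cre is driven by the promoter of Ncr1, the gene of NKp46, so the deletion is not aimed at epithelial cells. All animals were 8 to 12 weeks old and received 4 cycles of 3 days of 2% dextran sodium sulfate (DSS), a polymer in drinking water that injures the colon lining, each followed by 4 days of recovery, with the endpoint at day 28. Frozen colon of 3 animals per genotype was pooled into 1 library of nuclei, so no value below has a replicate check, and a difference between the libraries cannot be told apart from a difference between animals, tissue pieces or preparations.

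The colon lining is renewed from stem cells at the crypt base. Their offspring stop dividing as they move up and acquire the machinery to take up salt, water and short-chain fatty acids, until they reach the surface and are shed. Mature colonocytes take up sodium in exchange for protons and chloride in exchange for bicarbonate, and they detoxify and export foreign compounds.

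The 164 WT nuclei held 651826 UMIs (unique molecular identifiers, 1 for each RNA molecule caught) and the 218 HIF-1α KO nuclei held 1331431. Their median depth was 3474.5 UMIs in WT and 5250.5 in HIF-1α KO, above the medians of 2058.5 and 4197 over all nuclei of the 2 libraries. Levels are given below as counts per 1000000 UMIs (CPM) over the summed nuclei, with exact 95% Poisson intervals, and shares with exact 95% binomial intervals. Both cover counting error only. These 3′ counts are not divided by gene length, so levels are compared between groups of nuclei and not between genes.

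Ceacam20 and Nlrp9b, 2 of the 8 markers, lie next to each other on the plus strand of chromosome 7 of GRCm38. Ceacam20 (ENSMUSG00000070777), which encodes a membrane glycoprotein of the CEACAM family, spans 19965412 to 19991104. Nlrp9b (ENSMUSG00000060508), an inflammasome receptor gene, spans 19991465 to 20073306, so that 360 bases separate the 2 genes in the GENCODE M21 annotation. The RefSeq start of Nlrp9b lies further on, inside the GENCODE gene. Tgm3 (ENSMUSG00000027401), a transglutaminase that cross-links proteins, lies on the plus strand of chromosome 2 from 130012349 to 130050399. The 250 bases before the RefSeq start of these 3 markers, read from RefSeq on GRCm38.p6, are shown because they let the neighbours be compared with a marker elsewhere in the genome. Capitals mark matches to TTTATNG, a motif of the intestinal factor CDX2, and to CCCCACCC, a motif of Krüppel-like factors.
Ceacam20, plus strand, chr7:19965162-19965411: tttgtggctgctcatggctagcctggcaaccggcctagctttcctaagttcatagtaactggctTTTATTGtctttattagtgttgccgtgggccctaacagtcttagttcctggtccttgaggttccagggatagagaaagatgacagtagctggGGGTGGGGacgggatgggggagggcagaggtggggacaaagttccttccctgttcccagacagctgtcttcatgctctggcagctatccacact
Nlrp9b, plus strand, chr7:20007773-20008022: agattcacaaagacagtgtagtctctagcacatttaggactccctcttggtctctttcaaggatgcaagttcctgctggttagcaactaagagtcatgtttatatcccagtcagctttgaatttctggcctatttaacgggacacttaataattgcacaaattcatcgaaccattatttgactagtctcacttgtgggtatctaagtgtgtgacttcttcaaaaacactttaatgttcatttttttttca
Tgm3, plus strand, chr2:130012090-130012339: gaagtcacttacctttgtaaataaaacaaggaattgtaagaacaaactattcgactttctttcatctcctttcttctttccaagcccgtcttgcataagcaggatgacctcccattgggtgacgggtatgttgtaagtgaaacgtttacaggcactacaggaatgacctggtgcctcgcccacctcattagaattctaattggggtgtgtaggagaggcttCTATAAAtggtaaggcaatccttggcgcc

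On either strand of these windows, TTTATNG occurred in 2 of the 7 markers with a RefSeq window, 186 bases before the start of Ceacam20 and 29 bases before that of Tgm3. It occurred in 9.81% of all 32851 windows of the same length. CCCCACCC occurred in 1 of 7, 94 bases before the start of Ceacam20, against 9.05% of all windows. AAAGTCCA, a motif of HNF4 factors, and AGATAAG, a motif of GATA factors, occurred in 0 of 7, against 1.01% and 2.74% of all windows. The motifs do not overlap each other in the windows shown, and a match is only a run of letters.

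Both neighbouring genes are markers of the rule, so how often they were found together in mid-crypt nuclei depends on the choice of nuclei. Of the 164 WT nuclei 117 had UMIs of both Ceacam20 and Nlrp9b, 23 of Ceacam20 alone, 19 of Nlrp9b alone and 5 of neither. Of the 218 HIF-1α KO nuclei 152 had both, 31 Ceacam20 alone, 28 Nlrp9b alone and 7 neither. Among crypt nuclei, which were not chosen for these genes but had fewer than 4 markers, 21 of 1482 in WT had both, 112 Ceacam20 alone and 187 Nlrp9b alone, and 26 of 1291 in HIF-1α KO had both, 172 Ceacam20 alone and 145 Nlrp9b alone. The ratio of Ceacam20 to Nlrp9b UMIs was 0.922 in WT and 1.06 in HIF-1α KO mid-crypt nuclei. Whether RNA that runs on from Ceacam20 was counted as Nlrp9b was not tested. With Nlrp9b removed from the markers, 111 and 164 nuclei met the rule, which can only be fewer than with it.

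The 8 markers chose these nuclei, so their levels are a description. St3gal4, a sialyltransferase that caps glycans, was the most widely detected, in 98.8% (WT) and 99.5% (HIF-1α KO) of nuclei. Its level was 2720 CPM (2595 to 2850) in WT and 2946 CPM (2854 to 3039) in HIF-1α KO. Slc37a2, a sugar-phosphate exchanger, was the least detected, in 9 and 36 nuclei, at 21.5 CPM (11.7 to 36.0) and 70.6 CPM (57.1 to 86.4). Ceacam20 and Nlrp9b were no lower at the surface, with 577 and 471 CPM of Ceacam20 in mid-crypt nuclei against 724 and 939 CPM in surface nuclei, and they separated mid-crypt nuclei only from the crypt. Of all 8 markers only 1 was at least 2-fold higher than in surface nuclei in both libraries, with median log2 ratios of 0.38 in WT and −0.16 in HIF-1α KO. Against crypt nuclei all 7 measured were higher. The markers thus set these nuclei apart from the crypt, and mainly the limit on surface genes set them apart from the surface. Of the WT nuclei 59 had exactly 4 markers and 1 had all 8, while in HIF-1α KO 60 had 4 and 6 had 8. Just outside the rule, 53 WT and 27 HIF-1α KO nuclei met the share and the surface limit with 3 markers. The marker share ranged from 0.301% to 1.71% of UMIs in WT nuclei with a median of 0.499%, and from 0.301% to 1.56% in HIF-1α KO nuclei with a median of 0.511%. Between 0.2% and 0.3%, 32 and 55 nuclei fell short of the share alone.

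**Figure D1:**
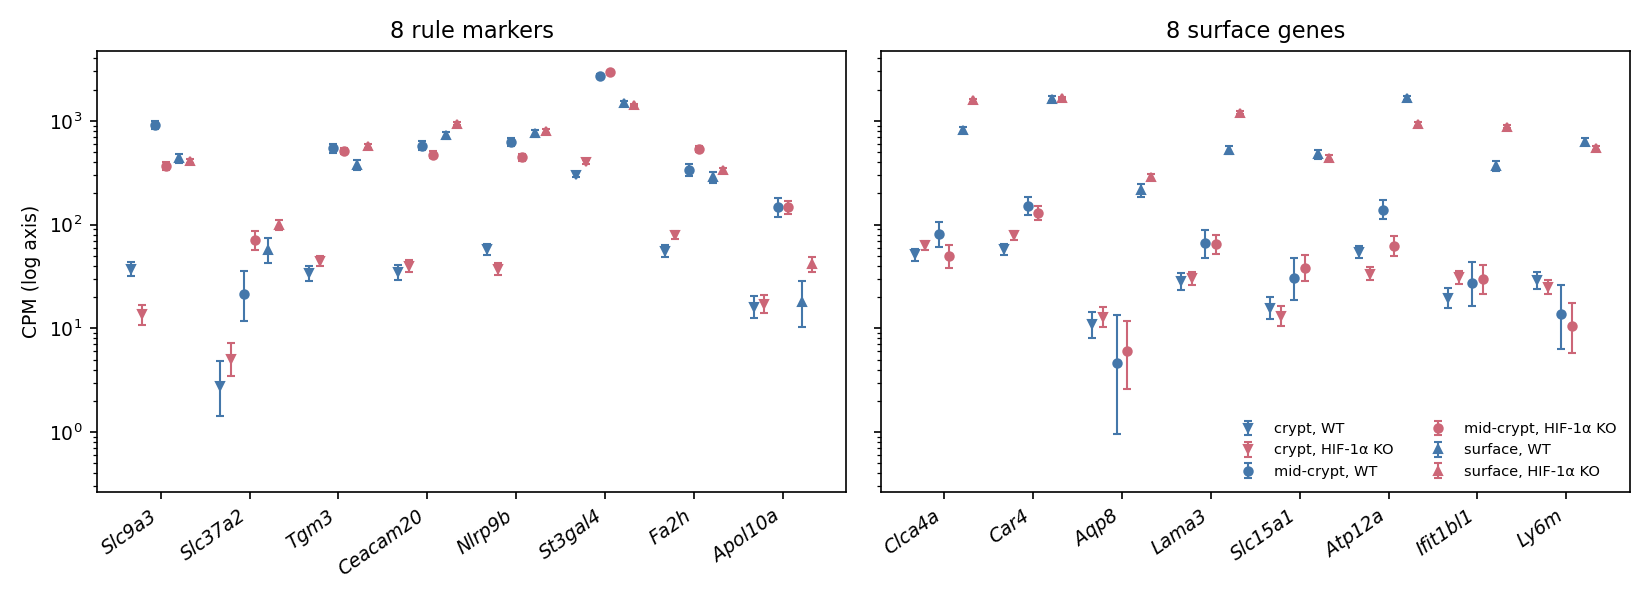
Level of each rule marker (left) and each surface gene (right) in CPM on a log axis, summed over crypt, mid-crypt and surface nuclei of the WT (blue) and HIF-1α KO (red) library, with exact 95% Poisson intervals for counting error. Apol10a was at 147 and 146 CPM in mid-crypt nuclei and at no more than 41.5 CPM in crypt or surface nuclei, while all 8 surface genes were lower in mid-crypt than in surface nuclei of both libraries.

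The limit on surface genes removed more nuclei than it kept. Of 341 WT nuclei that met both marker criteria, 177 had 3 or more surface genes and were left out, and 107 of those met the rule for surface nuclei. In HIF-1α KO 799 nuclei met the marker criteria and 581 were left out, 309 of them surface nuclei. Among the nuclei kept, 42 WT and 36 HIF-1α KO nuclei had no surface gene, 58 and 66 had 1, and 64 and 116 had 2. With exactly 3 surface genes, 40 and 105 further nuclei stood just outside. Free RNA from broken cells can add such counts, and its level was not estimated. Mesenchymal nuclei, which should lack these genes, are given beside mid-crypt nuclei here and below. The mesenchymal nuclei had a lower median depth, 2230 UMIs in WT and 3440.5 in HIF-1α KO. Equal free RNA per nucleus would thus give a higher CPM in them. The 8 surface genes summed to 515 CPM in WT mid-crypt nuclei and 324 CPM in WT mesenchymal nuclei. In the HIF-1α KO library the sums were 391 and 603 CPM. The rule limits these genes in mid-crypt nuclei and not in mesenchymal nuclei, so the sums are a description of the choice.

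The share of mid-crypt nuclei was 3.36% (2.87 to 3.90) in WT and 4.64% (4.05 to 5.28) in HIF-1α KO, and its order depended on depth. Among nuclei of 3000 to 6000 UMIs, 80 of 1099 WT nuclei or 7.28% and 111 of 1992 HIF-1α KO nuclei or 5.57% were mid-crypt, the opposite order. With every nucleus thinned to 1000 UMIs before the rule was applied, the shares were 1.72% (1.37 to 2.12) and 4.27% (3.70 to 4.89). Thinning also exchanged the nuclei. Only 49 of the 84 thinned WT choices and 63 of the 198 thinned HIF-1α KO choices were mid-crypt nuclei at full depth, and 33 and 131 of them had 3 or more surface genes there. For thinning, 63 HIF-1α KO nuclei under 1000 UMIs and no WT nucleus were left out.

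**Figure D2:**
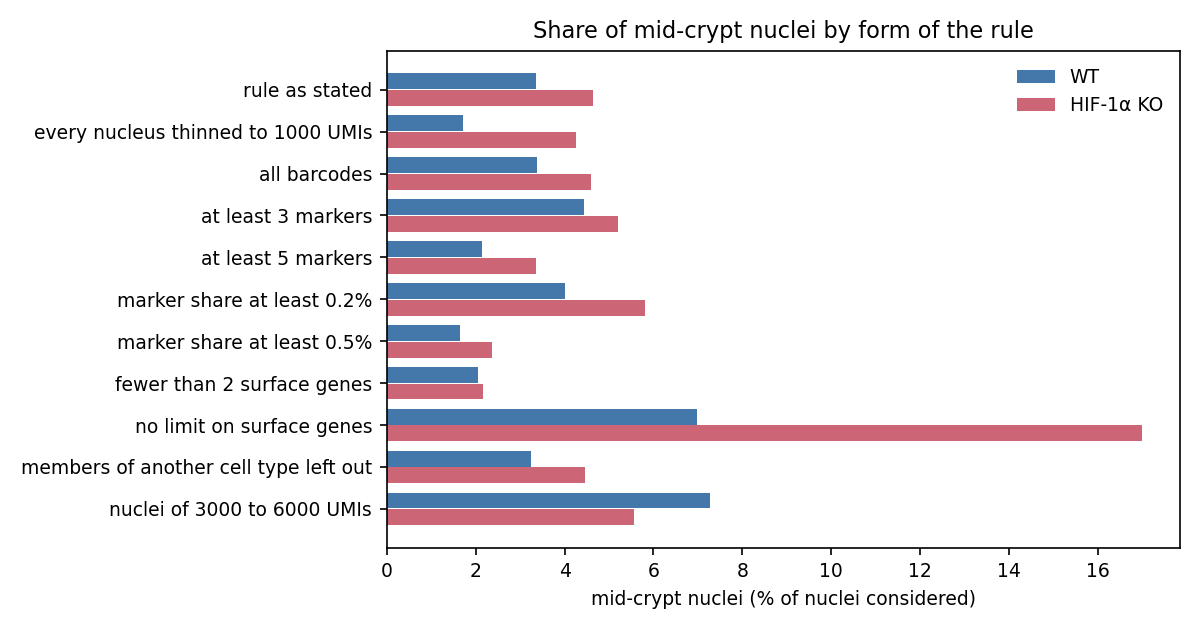
Mid-crypt nuclei as a percentage of the nuclei considered (horizontal axis) in the WT (blue) and HIF-1α KO (red) library, 1 library each, for the rule as stated and 10 other forms of it. HIF-1α KO is higher in every form shown except among nuclei of 3000 to 6000 UMIs, where WT is at 7.28% and HIF-1α KO at 5.57%.

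Levels of 2 marker lists that the mid-crypt rule did not read lay between those of crypt and surface nuclei. Crypt nuclei were defined here by detection of both Cftr and Htr4 with fewer than 4 mid-crypt markers, and numbered 1482 in WT and 1291 in HIF-1α KO. They also had to meet the limit on surface genes of the mid-crypt rule. Nuclei that met the goblet or mesenchymal rule were left out of the crypt class. Surface nuclei had at least 4 of the 8 surface genes at 0.3% of UMIs or more, and numbered 197 and 471. A list of 12 genes shared by colonocytes took a median of 0.268% of the UMIs of a WT crypt nucleus, 0.719% of a mid-crypt nucleus and 1.44% of a surface nucleus. The HIF-1α KO medians were 0.318%, 0.652% and 1.27%. A list of 8 crypt enterocyte genes, which includes Cftr and Htr4 and is therefore high in crypt nuclei by their definition, went the other way, with WT medians of 0.410%, 0.187% and 0.0909% and HIF-1α KO medians of 0.498%, 0.197% and 0.0951%. Both lists had the mid-crypt nuclei at an intermediate level in both libraries. The classes were cut by mid-crypt markers and surface genes, and genes that go with these can be ordered by the cut itself. The order of the shared list is therefore a description and not a test. The ranges from lower to upper quartile overlapped between crypt and mid-crypt nuclei for the crypt list in WT, where the upper quartile of mid-crypt nuclei was 0.284% and the lower quartile of crypt nuclei 0.279%, but not in HIF-1α KO, where they were 0.311% and 0.331%.

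**Figure D3:**
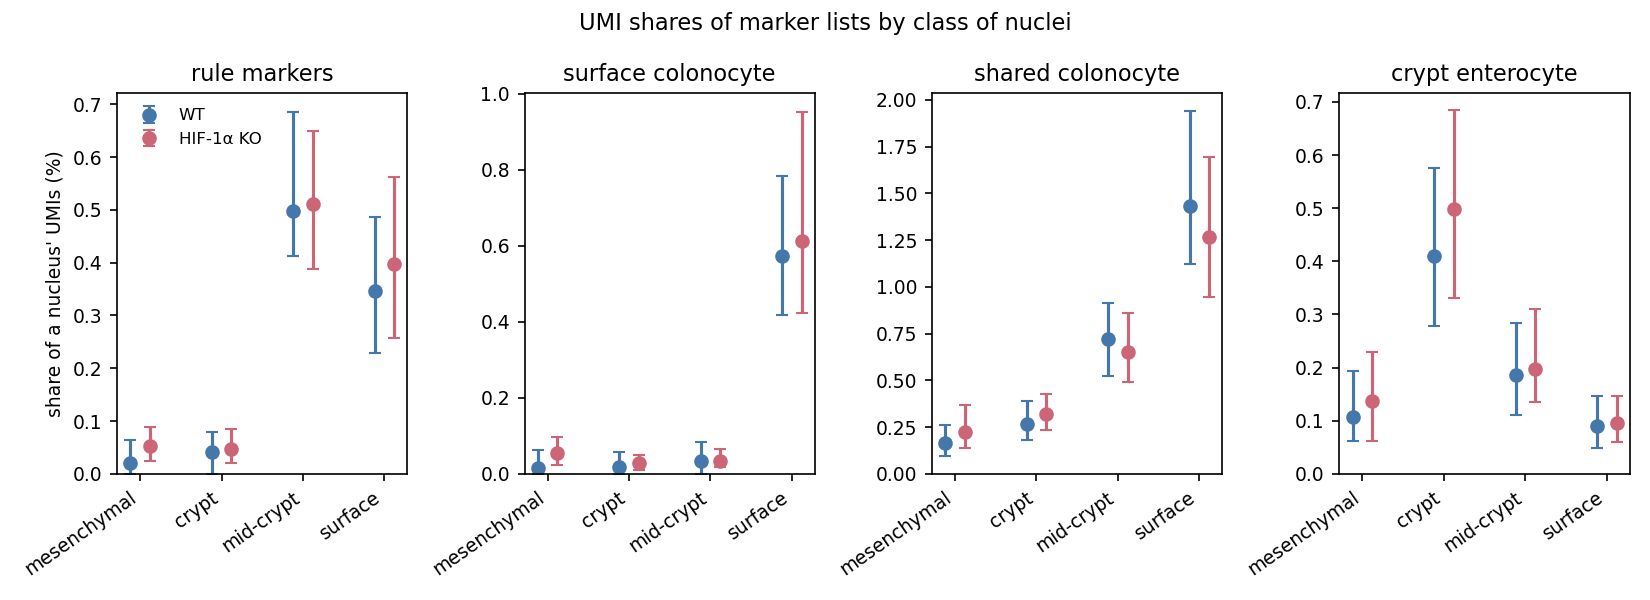
Median share of a nucleus' UMIs (points, bars from lower to upper quartile over nuclei, in percent) for 4 marker lists in mesenchymal, crypt, mid-crypt and surface nuclei of WT (blue) and HIF-1α KO (red). The shared colonocyte list climbs from 0.268% to 0.719% to 1.44% in WT while the crypt enterocyte list descends. The first 2 panels show genes that the rule used and the crypt list holds the 2 genes that defined crypt nuclei. The crypt, mid-crypt and surface classes were cut by genes of the same nuclei, so the order is a description.

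Few mid-crypt nuclei met the rule of another cell type. In WT 6 of 164 also met the rule of another cell type, 5 as enteroendocrine, and in HIF-1α KO 8 of 218 did, 6 as goblet. No barcode of a mid-crypt nucleus occurred in both libraries, although 3 barcodes did over all nuclei. The 10 goblet markers summed to 1002 CPM in WT and 2049 CPM in HIF-1α KO mid-crypt nuclei, the 10 neuron and glia markers to 580 and 152 CPM, the 10 enteroendocrine markers to 385 and 93.1 CPM and the 10 immune markers to 242 and 163 CPM. The 8 tuft markers summed to 16.9 and 15.8 CPM and the 10 endothelial markers to 169 and 30.8 CPM. The 10 mesenchymal markers summed to 347 CPM in WT and 169 CPM in HIF-1α KO, against 9983 and 13737 CPM in mesenchymal nuclei.

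Against crypt nuclei, mid-crypt nuclei had less RNA of the cycling genes and more of some transport and detoxification genes. Of 8778 genes with at least 50 UMIs over both classes in each library, 264 or 3.01% were at least 2-fold higher in mid-crypt nuclei in both libraries and 837 or 9.54% were at least 2-fold lower. These classes were cut by genes of the same nuclei, so the counts describe and do not test. All 10 cycling genes measured were lower. Mki67, the proliferation marker, was at 133 and 103 CPM in WT and HIF-1α KO crypt nuclei and at 18.4 and 28.5 CPM in mid-crypt nuclei. The mesenchymal nuclei had 25.2 and 27.1 CPM of it, near the mid-crypt level, and the part of free RNA was not tested. Top2a, which untangles DNA in dividing cells, went from 196 to 32.2 CPM in WT and from 152 to 43.6 CPM in HIF-1α KO. The genes lowest against crypt were Knl1, Ckap2l, Nsl1, Smo, Etv4, Foxm1, Ttk and Cnn3, and Knl1, of the kinetochore, had 4 and 10 UMIs left in mid-crypt nuclei.

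Targets of Wnt signalling, which maintains crypt stem cells, were low as well. Of 8 measured, 5 were at least 2-fold lower than in crypt nuclei and none was higher, with medians of the log2 ratio of −1.49 in WT and −1.71 in HIF-1α KO, beside −0.17 and −0.19 over all genes. Ephb2, a receptor that keeps cells low in the crypt, went from 667 to 264 CPM in WT and from 490 to 222 CPM in HIF-1α KO. Znrf3, a Wnt feedback ligase, went from 297 to 95.1 CPM and from 302 to 70.6 CPM. Slc12a2, which loads chloride for secretion, went from 496 to 106 CPM and from 522 to 113 CPM. Cftr, the chloride channel that defined the crypt class, was at 402 CPM in WT and 252 CPM in HIF-1α KO mid-crypt nuclei.

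Some genes of salt uptake were higher than in the crypt. Of 14 sodium and chloride genes measured, 5 were at least 2-fold higher in both libraries, among them the rule marker Slc9a3, and 1 was lower, with median log2 ratios of 1.09 and 0.88. Slc26a3, the apical chloride and bicarbonate exchanger, stood at 175 CPM in WT crypt nuclei, 1055 CPM in mid-crypt and 1716 CPM in surface nuclei, and at 263, 1411 and 1720 CPM in HIF-1α KO. Slc9a2, a sodium and proton exchanger, went from 98.2 to 338 to 545 CPM in WT and from 141 to 429 to 583 CPM in HIF-1α KO. Slc9a3, the other exchanger of this kind and a rule marker, did not climb further. It was at 37.6 CPM in WT crypt nuclei, at 914 CPM (842 to 991) in mid-crypt nuclei and at 435 CPM (394 to 479) in surface nuclei. In HIF-1α KO it was at 13.6, 366 (334 to 400) and 411 CPM (390 to 433). Nr3c2, the mineralocorticoid receptor, doubled from crypt to mid-crypt nuclei, with 1775 and 3596 CPM in WT and 2697 and 5719 CPM in HIF-1α KO. Kcnn4, a potassium channel of secreting cells, was the 1 lower gene, with 52.7 and 10.7 CPM in WT and 77.1 and 18.8 CPM in HIF-1α KO.

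Other transport lists held fewer. Of 12 solute carriers of sugar, phosphate, sulfate and metabolites 2 were higher and none lower, with median log2 ratios of 0.28 and 0.33. Of 17 genes of butyrate uptake and fatty acid oxidation 2 were higher and 1 was lower, with medians of 0.50 and 0.48.

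Drug and steroid metabolism gave the most higher genes of any list, 9 of 17 against crypt nuclei and none lower. Median log2 ratios were 1.41 in WT and 1.13 in HIF-1α KO. Cyp2c55, a cytochrome P450, went from 85.4 to 595 CPM in WT and from 52.9 to 368 CPM in HIF-1α KO. Abcb1a, which pumps drugs out of the cell, went from 135 to 499 CPM and from 169 to 596 CPM, and the bile acid receptor gene Nr1h4 from 186 to 494 CPM and from 185 to 403 CPM. Of 9 BMP pathway genes measured, 3 were at least 2-fold higher and none was lower. They were Id1, Smad6 and Smad7, all known to be induced by BMP signals. Smad7 was at 81.3 and 210 CPM in WT crypt and mid-crypt nuclei and at 93.9 and 243 CPM in HIF-1α KO.

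Against surface nuclei, mid-crypt nuclei had less RNA of inflammation, stress response and antigen presentation. Of 4950 genes measured, 199 or 4.02% were at least 2-fold higher in mid-crypt nuclei in both libraries and 306 or 6.18% were at least 2-fold lower. Among 10 antimicrobial and inflammation genes measured, 7 were lower and none was higher. Saa1, an acute-phase protein, was at 98.2 CPM in WT and 147 CPM in HIF-1α KO mid-crypt nuclei, against 1852 and 1555 CPM in surface nuclei. Mid-crypt nuclei had no more Saa1 than mesenchymal nuclei, at 129 and 167 CPM, and the part of free RNA was not tested. Duoxa2, needed for the peroxide-producing oxidase DUOX2, had 1 and 10 UMIs in mid-crypt nuclei and was at 135 and 92.3 CPM in surface nuclei. Of 4 MHC class I and II genes measured, 3 were lower and none was higher. The lower ones were H2-K1, H2-D1 and B2m, which form MHC class I. H2-K1 was at 152 and 105 CPM against 655 and 416 CPM.

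Immediate-early and hypoxia genes followed the same direction. Of 10 immediate-early genes measured 7 were lower than in surface nuclei, with median log2 ratios of −1.62 and −1.78 beside 0.14 and 0.29 over all genes. Atf3, a stress-induced factor, was at 9.20 and 7.51 CPM in mid-crypt and at 83.8 and 211 CPM in surface nuclei. Of 16 hypoxia and glycolysis genes measured 6 were lower and none was higher. Slc2a1, the glucose transporter, was at 29.1 and 38.3 CPM against 122 and 138 CPM, and Hk2, a hexokinase, at 123 and 187 CPM against 399 and 471 CPM. Hif1a (ENSMUSG00000021109, chromosome 12, 73901375 to 73947530, plus strand) was at 249 CPM (212 to 290) in WT and 255 CPM (229 to 284) in HIF-1α KO mid-crypt nuclei, and at 326 and 306 CPM in surface nuclei. Of 15 brush border genes 5 were lower than at the surface and none was higher. Eps8, which caps actin in microvilli, was at 540 and 499 CPM against 1602 and 2144 CPM.

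The genes highest over surface nuclei were Gm34084, Aqp4, Hao2, Acer1, Cyp2c68, Smad6, Il17re and Gsdmc2. Aqp4, a water channel, was at 476 CPM (424 to 532) in WT and 399 CPM (366 to 434) in HIF-1α KO mid-crypt nuclei, and at 55.5 and 59.8 CPM in surface nuclei. It was also at 355 and 251 CPM in crypt nuclei. Mesenchymal nuclei had 77.9 and 67.0 CPM, above the surface level, and the part of free RNA was not tested. Hao2, a peroxisomal oxidase of hydroxy acids, was at 146 and 255 CPM against 18.9 and 45.7 CPM at the surface. Il17re, a receptor chain for interleukin-17C, had 40 and 46 UMIs, or 61.4 and 34.5 CPM, against 10.5 and 7.77 CPM at the surface. At the other end stood Aqp8, Ly6m, Cldn4, Cyp2d9, 5430427M07Rik, Ifit1bl1, Cpm and Duoxa2. Aqp8, Ly6m and Ifit1bl1 are genes of the rule. Cyp2d9 had 0 UMIs in WT mid-crypt nuclei, a count that was set to a floor of 3 for its ratio.

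Over the 4895 genes measured against both neighbours, rule genes left out, 34 or 0.695% climbed at least 2-fold at each step from crypt to mid-crypt to surface in both libraries, and 10 or 0.204% descended at each step. Mxd1, an antagonist of MYC, was among those that climbed, at 91.0, 483 and 1245 CPM in WT and 132, 590 and 1831 CPM in HIF-1α KO. Slc25a20, which carries fatty acids into mitochondria, was at 41.3, 219 and 562 CPM in WT and 50.6, 271 and 756 CPM in HIF-1α KO. Krt20, a keratin of differentiated intestinal cells, was at 58.3, 213 and 428 CPM and at 90.4, 236 and 647 CPM. Bcl11b, a transcription factor, was among those that descended, at 170, 79.8 and 27.2 CPM in WT and at 193, 84.9 and 21.8 CPM in HIF-1α KO.

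Only 6 genes, or 0.123%, were at least 2-fold above both neighbours in both libraries: Gm34084, Acer1, Pcsk5, Fkbp5, Hsd3b3 and Smad6. Gm34084 (ENSMUSG00000113010), a long noncoding RNA on the minus strand of chromosome 13 from 44472426 to 44504548, was at 166 CPM (136 to 200) in WT and 114 CPM (96.7 to 134) in HIF-1α KO mid-crypt nuclei. It was at 34.6 and 24.3 CPM in crypt nuclei, 15.7 and 15.8 CPM in surface nuclei and 3.44 and 5.70 CPM in mesenchymal nuclei. Acer1, an alkaline ceramidase, was at 79.8 and 98.4 CPM in mid-crypt nuclei and between 15.7 and 34.5 CPM in the neighbours. Pcsk5, a proprotein convertase, was at 492 and 474 CPM against 163 to 186 CPM. Hsd3b3, a steroid dehydrogenase, was at 341 and 475 CPM against 112 to 175 CPM. Smad6, an inhibitor of BMP signals, was at 98.2 and 116 CPM against 22.0 to 55.8 CPM, but mesenchymal nuclei had 120 and 127 CPM of it. The rule marker Apol10a, of the apolipoprotein L family, had the same shape and is left out of the count, and it was the 1 gene of its family with enough UMIs to measure.

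**Figure D4:**
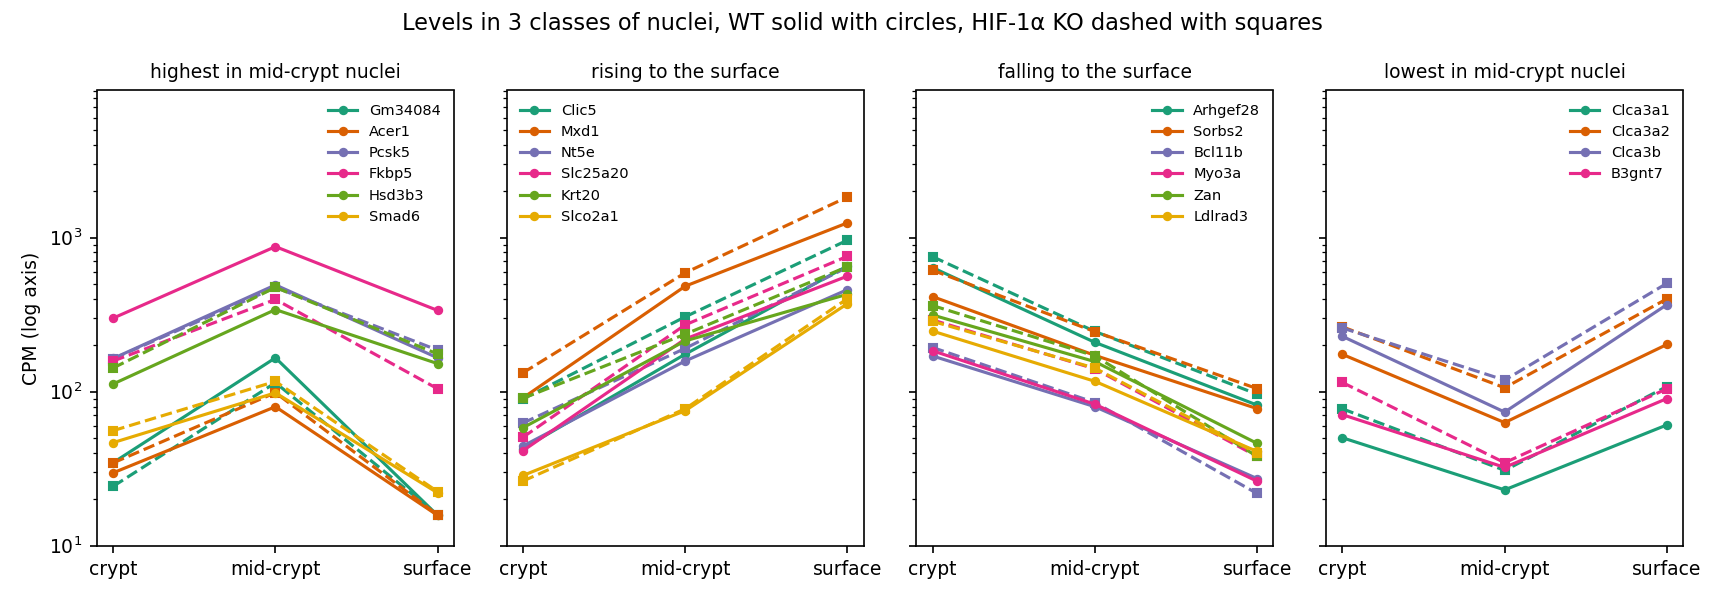
Level in CPM (log axis) in crypt, mid-crypt and surface nuclei, for WT (solid lines, circles) and HIF-1α KO (dashed lines, squares), of up to 6 genes per pattern that were at least 2-fold higher or lower than both neighbours or changing by 2-fold at each step in both libraries. The 6 genes of the first panel peak in mid-crypt nuclei of both libraries, with Fkbp5 at 873 CPM in WT and 397 CPM in HIF-1α KO.

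A further 4 genes, or 0.0817%, were at least 2-fold below both neighbours: Clca3a1, Clca3a2, Clca3b and B3gnt7. The first 3 are neighbouring copies on chromosome 3 whose reads can be hard to assign, and their values may not be separate. Clca3b was at 228 CPM in WT crypt nuclei, 73.6 CPM in mid-crypt and 367 CPM in surface nuclei, and at 259, 119 and 504 CPM in HIF-1α KO. Mesenchymal nuclei had 79.0 and 111 CPM of it, near the mid-crypt level. B3gnt7, an enzyme that extends keratan sulfate, was at 70.8, 32.2 and 90.1 CPM in WT and 115, 34.5 and 104 CPM in HIF-1α KO.

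Within the mid-crypt nuclei, the number of surface genes detected, from 0 to 2, went with some of the genes and lists examined. The shared colonocyte list summed to 6659 CPM in the 42 WT nuclei without a surface gene, 7195 CPM in the 58 with 1 and 7653 CPM in the 64 with 2. In HIF-1α KO the sums were 6580, 6521 and 7449 CPM over 36, 66 and 116 nuclei. Immediate-early genes summed to 741, 914 and 987 CPM in WT and 555, 716 and 773 CPM in HIF-1α KO. Rule markers, which chose the nuclei, rose from 5382 to 6093 CPM in WT and from 4889 to 5811 CPM in HIF-1α KO. The crypt enterocyte list was at 2759, 2183 and 2095 CPM in WT and 2485, 2520 and 2451 CPM in HIF-1α KO. Hao2, high against the surface class, was at 245 CPM (171 to 339), 124 (83.0 to 178) and 111 CPM (74.8 to 158) in WT, and at 397 (318 to 489), 275 (226 to 331) and 199 CPM (168 to 235) in HIF-1α KO, so the nuclei without a surface gene had the highest level in both libraries. Ceacam20 went the other way, from 421 (323 to 540) to 658 CPM (565 to 762) in WT and from 406 (326 to 499) to 512 CPM (461 to 567) in HIF-1α KO. Aqp4, Gsdmc2, Cyp2c68 and Gm34084 had no order that both libraries shared beyond the counting intervals.

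Between the libraries, 211 of 5655 genes or 3.73% were at least 2-fold higher in HIF-1α KO mid-crypt nuclei and 110 or 1.95% at least 2-fold lower, with a median log2 ratio of 0.08 over all 5655. Centred on that median the counts were 168 and 140, and with the nuclei thinned to 1000 UMIs 40 and 24, from fewer genes measured. Without replicates these are ratios of 2 libraries and carry no test. Of the 8 rule markers Slc37a2 was higher and Slc9a3 lower. Slc9a3 (ENSMUSG00000036123, chromosome 13, 74121457 to 74169442, plus strand) had 596 UMIs in 110 WT nuclei and 487 UMIs in 90 HIF-1α KO nuclei, a log2 ratio of −1.32 (−1.50 to −1.15). It was detected in 67.1% (WT) and 41.3% (HIF-1α KO) of mid-crypt nuclei at full depth, and in 41.5% and 19.7% after thinning to 1000 UMIs, against 4.92% and 4.24% of thinned mesenchymal nuclei. Its level in mid-crypt nuclei depends on their choice. With nuclei chosen and summed on thinned counts the log2 ratio was −0.79, short of 2-fold, and none of the 7 rule markers measured there was past 2-fold. In crypt nuclei the log2 ratio of Slc9a3 was −1.47 and in surface nuclei −0.08. The crypt levels were low, 37.6 CPM in WT and 13.6 CPM in HIF-1α KO, beside 36.7 and 27.1 CPM in mesenchymal nuclei. With no limit on surface genes it was −0.73. Fa2h, which hydroxylates fatty acids of sphingolipids, was at 336 CPM (293 to 384) in WT and 537 CPM (498 to 578) in HIF-1α KO. Tgm3, St3gal4 and Apol10a had log2 ratios of −0.08, 0.11 and −0.01.

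The 10 lowest ratios belonged to Cntn5, Ctnna2, Piezo2, Tafa1, Zbtb16, Rora, Nxn, Sdk1, Rbfox1 and Nrg1, and some rested on few nuclei. Cntn5, a neuronal adhesion gene, had 56 UMIs in WT, 92.9% of them in 3 nuclei, and 3 UMIs in HIF-1α KO. Rbfox1, a splicing factor of neurons, had 116 and 30 UMIs with 90.5% of the WT UMIs in 3 nuclei, and its log2 ratio of −2.98 became −0.05 once nuclei that also met the rule of another cell type were left out. Ctnna2, Piezo2, Tafa1 and Nrg1 had between 66.7% and 69.1% of their WT UMIs in 3 nuclei each. In these 6 genes 3 WT nuclei thus held at least 66.7% of the UMIs.

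Zbtb16 (ENSMUSG00000066687, chromosome 9, 48654297 to 48836222, minus strand), which encodes the zinc finger factor PLZF, was spread over many nuclei. It had 85 UMIs in 55 of 164 WT nuclei and 10 UMIs in 9 of 218 HIF-1α KO nuclei, or 130 CPM (104 to 161) and 7.51 CPM (3.60 to 13.8), with a log2 ratio of −4.12 (−5.23 to −3.17). The 3 leading WT nuclei held 15.3% of its UMIs. The other nuclei of the libraries had 93.6 and 18.6 CPM, so Zbtb16 was also low outside the mid-crypt nuclei of the HIF-1α KO library. Rora, a nuclear receptor of the clock, had 52 UMIs in 27 WT nuclei and 7 UMIs in 7 HIF-1α KO nuclei, and was at 207 and 54.2 CPM in the other nuclei.

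The 10 highest ratios were Gm16599, B430010I23Rik, 5330438D12Rik, Tcea3, Sprr2a3, Plet1, 2610318M16Rik, Ackr4, Gm19461 and 5830428M24Rik. All had 12 UMIs or fewer in the WT nuclei. Gm16599 (ENSMUSG00000086220), an antisense RNA on chromosome 5, had 2 and 71 UMIs and was at 3.07 and 53.3 CPM. Whether strand was used in counting is not given in the sources used here. Whether reads of the gene it overlaps were counted for Gm16599 was not tested. Plet1, an epithelial surface protein, had 8 and 101 UMIs, a log2 ratio of 2.63 (1.59 to 3.88), and was at 24.7 and 117 CPM in the other nuclei. Sprr2a3, a cornified envelope gene of a family with close copies, had 10 and 129 UMIs, or 15.3 and 96.9 CPM. In the other nuclei 9 of the 10 genes had a log2 ratio over 0.9, the exception being 5830428M24Rik at 0.81.

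**Figure D5:**
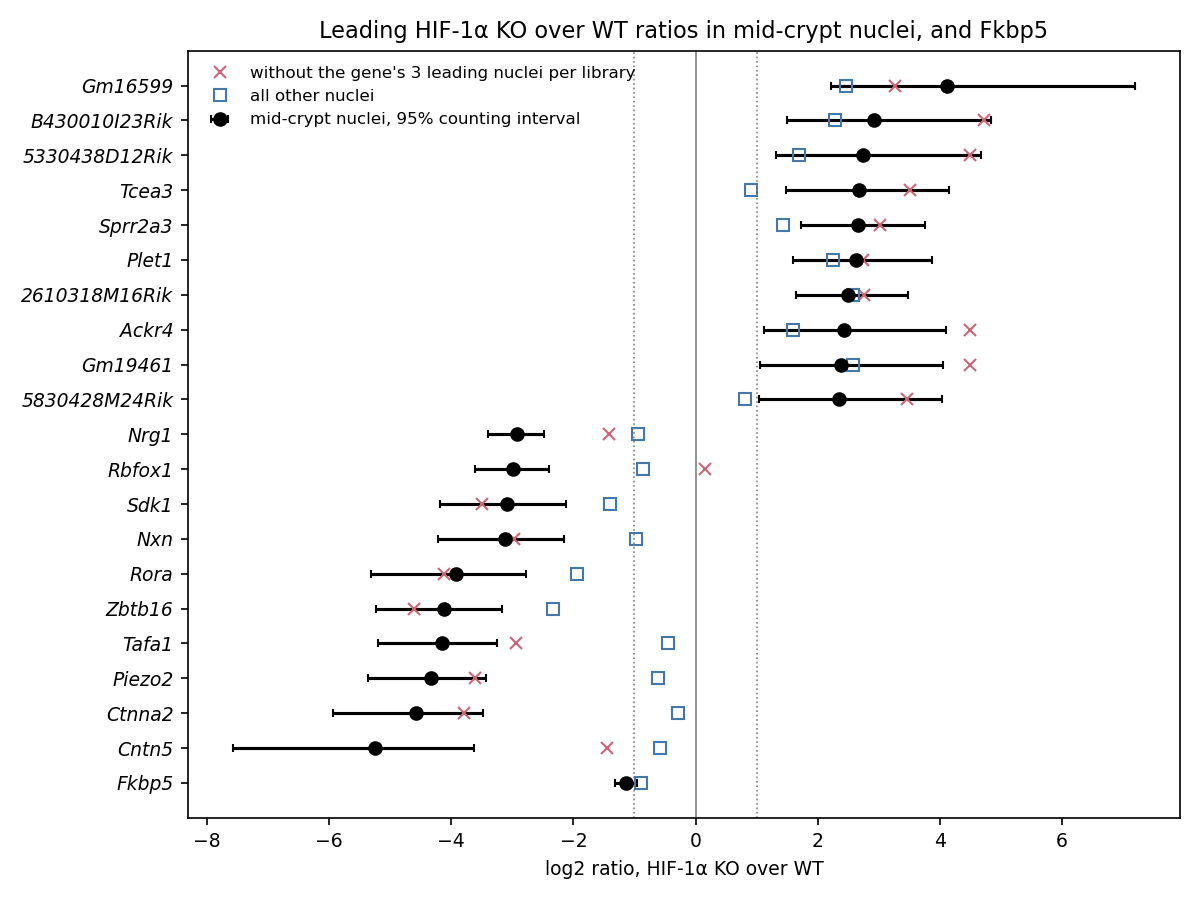
Log2 ratio of HIF-1α KO over WT for the 10 highest and 10 lowest genes of mid-crypt nuclei and for Fkbp5, which was chosen after its values were seen (black, with exact 95% counting intervals), the same without the 3 nuclei per library that hold most UMIs of the gene (crosses, not drawn for Fkbp5), and in all other nuclei (squares), with 1 library per genotype. Rbfox1 moves from −2.98 to 0.15 without its 3 leading nuclei, while Zbtb16 moves from −4.12 to −4.62.

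Goblet genes were higher in HIF-1α KO mid-crypt nuclei. Of 10 measured 7 were at least 2-fold higher and none lower, with a median log2 ratio of 1.60, against 0.53 in the other nuclei. Fcgbp, a mucus protein, was at 92.0 CPM in WT and 324 CPM in HIF-1α KO, and Clca1, a mucus-processing protease, at 56.8 and 216 CPM. After nuclei that also met the rule of another cell type were left out, 2 of 9 were at least 2-fold higher and the median was 0.48. Mesenchymal nuclei, which were shallower, had a goblet sum of 1495 CPM in WT and 2132 CPM in HIF-1α KO. These sums were above or near the 1002 and 2049 CPM of mid-crypt nuclei. The part of free RNA in them was not tested.

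The inflammasome and pyroptosis list held 3 higher genes of 19 and none lower, with a median log2 ratio of 0.52, against 0.54 in the other nuclei. Gsdmc4, of a gasdermin family of the mouse colon, was at 181 CPM (150 to 217) in WT and 391 CPM (358 to 426) in HIF-1α KO, a log2 ratio of 1.11 (0.82 to 1.41). Its copy Gsdmc2 was at 178 CPM (147 to 213) and 350 CPM (319 to 383), a log2 ratio of 0.98 that fell just short of 2-fold. Both lie on chromosome 15 among close copies that can share reads. In surface nuclei Gsdmc2 was at 43.0 and 43.6 CPM. Nlrp6, a sensor of the same receptor family as Nlrp9b, was at 47.6 and 116 CPM and Nlrp1b at 53.7 and 140 CPM. After mid-crypt nuclei were thinned to 1000 UMIs none of 11 measured genes of this list was past 2-fold, and with no limit on surface genes none of 19 was. With nuclei chosen and summed on thinned counts 2 of 8 were higher, and among nuclei of 3000 to 6000 UMIs 3 of 16. Without the 3 leading nuclei of each gene 5 of 19 were higher.

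Vdr, the vitamin D receptor, was at 244 CPM (207 to 285) in WT and 502 CPM (464 to 541) in HIF-1α KO, and with Isx made 2 higher of 17 colonocyte transcription factors. Among 13 sodium and chloride genes 3 were lower and none higher. They were Slc9a3, a rule marker, Atp12a, a surface gene that the rule limits, and Sgk1, the 1 of them outside the rule. Sgk1, a kinase that steroid hormones induce, had 51 and 18 UMIs, or 78.2 and 13.5 CPM. Car1, a carbonic anhydrase, was at 660 and 228 CPM and was the 1 lower gene of 12 shared colonocyte genes. Hoxb9, at 140 and 64.6 CPM, was the 1 lower of 7 Hox genes. Both enteroendocrine genes and both neuron and glia genes measured were lower. With nuclei of another cell type left out, 0 of 1 enteroendocrine gene was lower, at a log2 ratio of −0.20, and 1 of 1 neuron and glia gene was, at −1.07. Without the 3 leading nuclei of each gene, 0 of 2 and 1 of 2 were lower. Of 17 hypoxia and glycolysis genes Pfkl was higher and none was lower, with a median log2 ratio of 0.40, against 0.48 in the other nuclei. None of 16 brush border, 14 sphingolipid, 15 drug and steroid metabolism, 9 BMP, 3 Wnt, 8 antimicrobial, 7 immediate-early or 3 MHC genes was past 2-fold in either direction.

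The 10 genes with most UMIs in mid-crypt nuclei were Malat1, Gm42418, Nr3c2, Gmds, AY036118, Neat1, Tcf7l2, Mecom, St3gal4 and Pard3b. Gm42418, a locus that collects ribosomal RNA reads, was at 46586 CPM in WT and 18277 CPM in HIF-1α KO mid-crypt nuclei, and at 88525 and 33866 CPM in crypt nuclei. Its part in the CPM of other genes was not tested. Nr3c2 had a log2 ratio of 0.67 (0.60 to 0.74) and Gmds, which makes GDP-fucose precursors, was at 2959 and 5279 CPM. Tcf7l2, the Wnt effector of the colon, was at 3611 and 3661 CPM.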

How the data were processed

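Single-nucleus RNA libraries (10x Genomics) were made from 2 pools of colon. Per the labels and the study's methods, the authors ran Cell Ranger 7.0.1 on mm10 (GRCm38) and deposited raw UMI counts per gene and barcode, 1 table per library. Whether intronic reads or strand were used is not given in the sources used here. Age, DSS schedule and pooling come from the study's methods.

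The counts were read with Python 3.11.15, numpy 2.4.6, pandas 2.3.3 and scipy 1.17.1, and figures drawn with matplotlib 3.10.9. Of 4896 WT and 4772 HIF-1α KO barcodes, 4884 and 4702 passed the filter. For each class of nuclei the UMIs were added up. Genes needed 50 UMIs, and called means past 2-fold. With 1 library per genotype there is no test and no p-value. Ratios have exact conditional 95% intervals, and a count of 0 was set to a floor of 3. Thinning drew 1000 UMIs per nucleus without replacement (seed 1). Ratios and the rule were tested on simulated data. No doublet caller was run, and nuclei that met another cell type's rule were left out in an alternative.

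Members, the 36 gene lists and the rule for named genes (the 10 highest and 10 lowest ratios between libraries, 8 and 8 against each neighbouring class, rule genes, leading genes of each list, the 10 genes with most UMIs and Hif1a) were chosen with earlier results of these data known. Genes of the climbing, descending, peaking and low patterns were chosen after their values were seen. GENCODE M21 placed all 237 named genes by Ensembl identifier. The result of 1 of these lists is not reported here.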

Additional observations from a re-analysis of the deposited data

How the results depend on the processing

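No paired analysis was possible because each genotype had 1 library, and for the same reason no replicate could be left out. The log2 ratio of the shares, HIF-1α KO over WT, was 0.47. It was 1.31 with every nucleus thinned to 1000 UMIs, 0.083 with fewer than 2 surface genes allowed, 1.28 with no limit on surface genes and −0.39 (−0.81 to 0.05) among nuclei of 3000 to 6000 UMIs, an alternative chosen after seeing the data. In 6 other forms of the rule it was between 0.23 and 0.64.

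The 211 higher and 110 lower genes between libraries became 40 and 24 with mid-crypt nuclei thinned to 1000 UMIs, of which 9 and 14 were among the first. With nuclei chosen and summed on thinned counts they became 48 and 17. A minimum of 20 UMIs gave 563 and 421, and 200 UMIs gave 18 and 19. Of the alternatives chosen after seeing the data, no limit on surface genes gave 360 and 385, nuclei of 3000 to 6000 UMIs gave 77 and 39, and leaving out the 3 leading nuclei of each gene gave 370 higher genes and 93 lower ones. That last step takes most UMIs of a gene with few, so its higher count follows in part from its construction.

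Against surface nuclei, thinning gave 45 higher and 118 lower genes, 20 UMIs gave 385 higher, and 200 UMIs gave 44 and 151. Against crypt nuclei, thinning gave 338 lower, and 200 UMIs gave 171 and 324. Fewer genes reach the minimum after thinning.

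Directions between libraries that turned were those of Ctnna2 (0.93), B430010I23Rik (−0.24), 5330438D12Rik (−0.82), Gm19461 (−0.82), Tff3 (−0.50), Cldn3 (−0.015), Isx (−0.24) and Pfkl (−1.82) on thinned choices, of Cacna1a (0.40) without nuclei of another cell type, of Rbfox1 (0.23) and Cacna1a (0.69) at 3000 to 6000 UMIs, and of Rbfox1 (0.15) without its 3 leading nuclei. The cause was not tested.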

Other observations

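Fkbp5, Zbtb16 and Sgk1, which glucocorticoids are known to induce, were all lower in the HIF-1α KO library. They and the genes named here were chosen after their values were seen. Fkbp5 (ENSMUSG00000024222, chromosome 17, 28399094 to 28517527, minus strand), which encodes a chaperone partner of steroid receptors, was at 873 CPM in WT and 397 CPM in HIF-1α KO mid-crypt nuclei, a log2 ratio of −1.14 (−1.31 to −0.96). It was detected in 59.8% and 31.7% of them after thinning to 1000 UMIs. Surface nuclei had 336 and 104 CPM, crypt nuclei 300 and 158 CPM and mesenchymal nuclei 167 and 95.5 CPM, so the lower level was not particular to mid-crypt nuclei. Sgk1 had log2 ratios of −2.53 in mid-crypt, −2.19 in surface, −1.79 in crypt and −2.27 in mesenchymal nuclei. Other genes that glucocorticoids induce differed among themselves. Per1 had log2 ratios of −1.03 in mid-crypt nuclei on 14 UMIs in each library, −0.69 in surface, −0.21 in crypt and −0.53 in mesenchymal nuclei. Tsc22d3 had a log2 ratio of −0.12 in mid-crypt nuclei on 16 and 30 UMIs, and Klf9 one of 0.45 on 68 and 190 UMIs. Errfi1 was at −0.16 there on 65 and 119 UMIs, Cdkn1a at 0.07 on 20 and 43, and Dusp1 at 1.19 on 3 and 14. The receptor gene Nr3c1 was at 196 CPM in WT and 237 CPM in HIF-1α KO. Hour of tissue collection and hormone levels are not given in the sources used here, and their part in these values was not tested.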
